A study of Sus scrofa with 21 samples.

Results

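Chemokines are small secreted proteins that guide leukocytes along concentration gradients, and their receptors are membrane proteins that couple to G proteins on the cells that follow them. The deposited table of read counts held 25880 genes. Members of the family were taken as the rows whose gene name begins with CCL, CXCL, CX3CL, XCL, CCR, CXCR, CX3CR, XCR or ACKR followed by a digit. Of 45 such rows, CCL27 had 0 counts in every library, and the other 44 are counted here: 24 ligands and 20 receptors. After the filter on low counts 36 of the 44 could be tested, and 8 were too low to read.

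The libraries came from heart tissue of 21 young pigs, 1 library per pig. Naive hearts were collected on postnatal day 1 (n = 2), day 3 (n = 2), day 7 (n = 3), day 14 (n = 3) and day 28 (n = 3). Hearts with a myocardial infarction (MI) were collected on day 7 (n = 3), day 14 (n = 3) and day 28 (n = 2), always after the left descending coronary artery had been tied off for good on day 1. The MI tissue was a small piece of the zone bordering the ischaemic area, and naive tissue came from the matching region. Titles name the controls naive, whereas the protocol text describes a sham operation without the ligation, and the name naive is kept here without settling which is right. The sources used here do not give sex, litter or library batch. Each library holds all cell types of its piece of tissue, so more or fewer cells of a type cannot be told apart from more or less RNA per cell.

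In an infarct, chemokines are known for drawing neutrophils first and monocytes after them, and for the later traffic of lymphocytes. CXC ligands of the CXCL2 and CXCL8 kind act mainly on neutrophils, CXCL9, CXCL10 and CXCL11 are induced by interferon and act on T cells through CXCR3, and CCL2 draws monocytes through CCR2. CXCL12, with its receptor CXCR4, retains and guides many cell types, and CCL19 and CCL21 act through CCR7. The atypical receptors ACKR1 to ACKR4 bind chemokines without ordinary G protein signalling and transport or remove them.

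The ligands on which the results turn lie together on chromosome 8 of the Sscrofa11.1 genome. CXCL8 (chr8:69932646-69935861) and CXCL2 (chr8:70157253-70159145) are the ends of a stretch of 226 kb with 6 protein-coding genes in RefSeq, 2 of them without a name, and AMCF-II (chr8:70008225-70010360) and PPBP (chr8:70021468-70022490) lie between them. CXCL9, CXCL10 and CXCL11 lie on the same chromosome, and CCL2, CCL3L1, CCL4, CCL5, CCL14 and CCL16 on chromosome 12. CCR1, CCR3, CCR9, CXCR6 and XCR1 are neighbours on chromosome 13. The 250 bases before the RefSeq start of CXCL2 and of CXCL8 are shown because these genes are the neutrophil-drawing ligands among the members that the name rule takes. Capitals mark the letters GGANTTTCC, the core of a kappa B site, where transcription factors of the NF-kB family are known to bind. Positions chr8:70157003-70157252 and chr8:69932396-69932645 were read on the plus strand.
CXCL2: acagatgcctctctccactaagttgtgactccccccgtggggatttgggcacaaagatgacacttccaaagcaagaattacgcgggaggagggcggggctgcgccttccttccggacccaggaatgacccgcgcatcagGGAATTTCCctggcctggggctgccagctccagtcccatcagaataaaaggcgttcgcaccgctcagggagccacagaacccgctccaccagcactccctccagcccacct
CXCL8: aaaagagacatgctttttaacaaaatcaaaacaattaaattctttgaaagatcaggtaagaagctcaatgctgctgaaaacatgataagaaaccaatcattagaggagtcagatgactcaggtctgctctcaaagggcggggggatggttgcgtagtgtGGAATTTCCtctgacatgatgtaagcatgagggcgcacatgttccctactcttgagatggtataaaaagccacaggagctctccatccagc

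The match began 111 bases before the start of CXCL2 and 91 bases before that of CXCL8. Searched on both strands, these letters were in the promoters of 7 of the 42 members with RefSeq coordinates (16.7%), namely CXCL2, CXCL8, CXCL10, CXCL11, CCL4, CCL5 and CXCR5. They were in 266 of 19548 protein-coding promoters of that length (1.36%). The match is a description of the letters and not evidence of binding.

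In naive hearts, levels of different genes were compared as CPM (library-scaled counts per 1e6 reads) per kilobase of RefSeq exon, since longer genes collect more reads. By the median over 13 naive libraries the order began with CCL21 at 46.6 CPM per kb (range 9.30 to 143), a ligand of lymphatic vessels and lymph nodes, and CCL14 at 31.1 (12.3 to 46.1), a ligand found in plasma. ACKR3, an atypical receptor for CXCL12, came next at 11.6 (5.27 to 22.3). CXCL9 at 8.74, CCL2 at 8.70, CX3CL1 at 6.87, CXCL10 at 6.2, CCL5 at 4.94, CCL19 at 4.66, CXCR4 at 4.08 and CXCL2 at 3.97 CPM per kb followed. The ranges of neighbours in this order overlapped, so neighbouring places are not separated beyond the spread between pigs. CXCL8 was at 0.0915 CPM per kb and CCR7 at 0.0776, far down the order. Exon lengths are those of RefSeq, while counting used other gene models, which limits this comparison.

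A group of 8 members was too low to read. Their highest counts in any library were 1 for CCL1 and CCL4, 6 for CCL28, CCR4 and CCR6, 7 for CCL17, 13 for CCR8 and 36 for CCR3. CCL17 was at 0 in 20 of 21 libraries, and its 7 counts were all in MI day 28 replicate 2, which also held the 36 counts of CCR3. Several tested genes were also low: CCL16 reached 16 counts, CCL20 and CXCR5 20, CCR9 27, CCL22 34 and CXCR3 35.

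**Figure D1:**
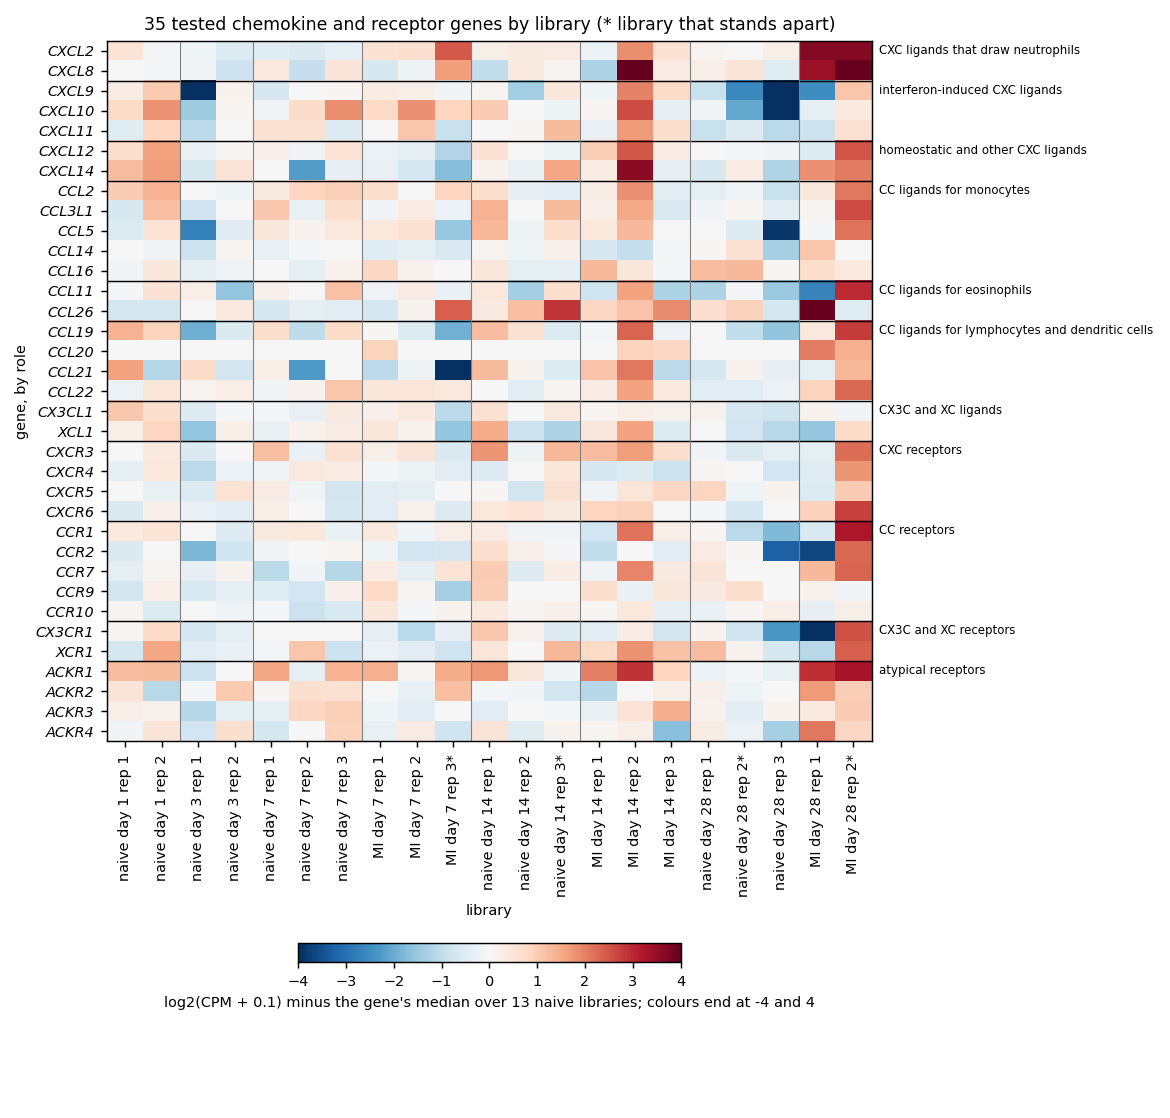
Heat map of 35 tested members (rows, by role) in 21 libraries (columns, by group), coloured by log2(CPM + 0.1) minus the gene's median over 13 naive libraries. MI day 28 replicate 2 and MI day 14 replicate 2 are red over most rows, while MI day 28 replicate 1 is red for CXCL2, CXCL8, CCL26 and the atypical receptors and blue for CCR2 and CX3CR1.

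Total counts per library ran from 37002909 to 95559841, and 3 counts corresponded to 0.0294 to 0.0811 CPM. The members together took 115.6 to 290.5 CPM in naive libraries, 184.7 to 192.4 in MI hearts on day 7, 187.0 to 417.9 on day 14, and 316.1 and 558.7 on day 28. The heart muscle markers (12 genes listed, 10 in the table) summed to 42560 to 107900 CPM in all libraries. In 4 libraries (MI day 7 replicate 3, naive day 14 replicate 3, naive day 28 replicate 2 and MI day 28 replicate 2) an unnamed gene, ENSSSCG00000035520, was at 5.06 to 12.1 CPM against 2819 to 8808 in the other 17. These are called the libraries that stand apart, and the members and gene lists called on day 28 are also given without them. Leaving them out keeps only replicate 1 of MI day 28, so there it largely repeats leaving out MI day 28 replicate 2.

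The first question was which members differed between MI and naive hearts of the same age. A member is called when its adjusted p in edgeR's quasi-likelihood test is under 0.05, with adjustment over all 15359 genes tested. On day 7 and on day 14, 0 of 36 members were called, and 0% of all genes were. On day 28, 7 of 36 members (19.4%) rose in MI hearts and 0 fell, where 6.86% of all genes tested were called and 4.47% were called higher. The 7 were CXCL2, CXCL8, CCL2, CCL22, CXCR6, CCR1 and ACKR1. The median log2 fold change of the members was -0.20 on day 7, 0.58 on day 14 and 2.06 on day 28, against 0.03, -0.01 and 0 over all genes. At an unadjusted p under 0.05 there were 1, 4 and 21 members on the 3 days, and 1905, 821 and 4144 of all genes.

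The day 28 count depended on single libraries and on the method. It was 1 or 2 without each naive day 28 library in turn, where 17 to 314 of all genes were called. With a term for the libraries that stand apart it was 3, with no filter on low counts 4 and with only the groups compared 1. It was 11 with DESeq2 and 1 with limma voom. All genes called were then 646, 721, 2, 2205 and 46 in that order, against 1053 as reported. Leaving out MI day 28 replicate 1, MI day 28 replicate 2 or the libraries that stand apart keeps 1 MI library of that age. The median log2 fold change of the members was then 2.61, 0.41 and 0.47. CXCL2 was called under each of these 12 alternatives, which include scaling by DESeq2's size factors.

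**Figure D2:**
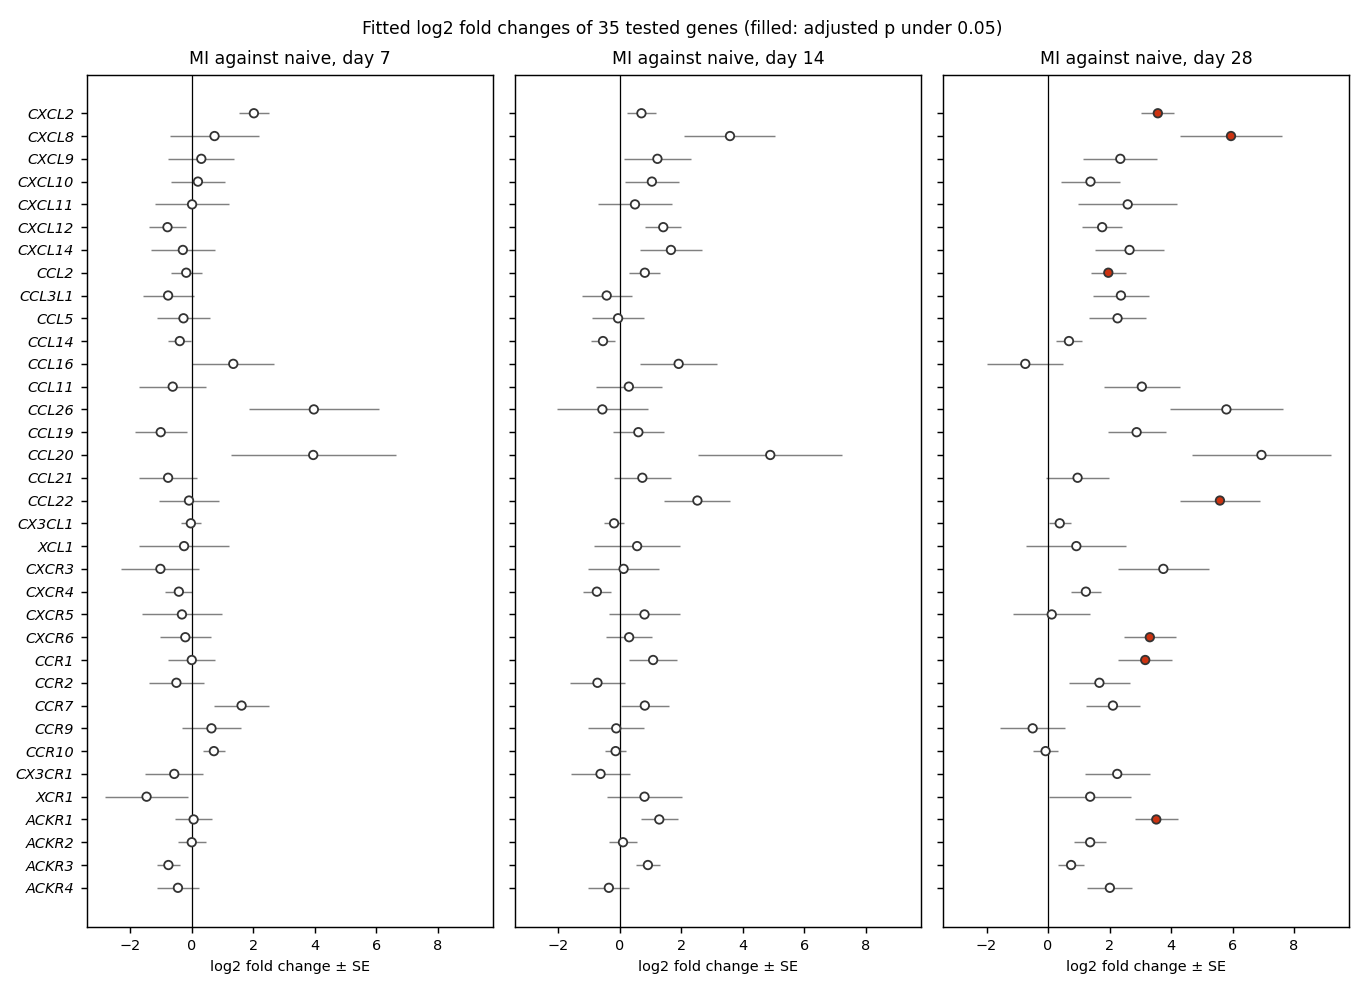
Fitted log2 fold changes (x axis, points with bars of 1 SE) of 35 tested members (y axis, by role) for MI against naive hearts on days 7, 14 and 28, filled where the adjusted p is under 0.05. Filled points appear on day 28 for 7 members, all to the right of 0; CCL20 had 0 counts in all naive libraries, so its fitted values depend on the prior count.

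CXCL2, a ligand that draws neutrophils through CXCR2, rose 11.9-fold in MI hearts on day 28. Its levels were 55.1 and 55.8 CPM in the MI libraries and 4.66, 4.26 and 5.05 CPM in the naive libraries of that age. The groups were far apart and each was tight: the MI libraries differed by a factor of 1.01. The log2 fold change was 3.57 (SE 0.54, adjusted p = 0.00702 in edgeR's quasi-likelihood test), and over the 12 alternatives it ran from 3.47 to 3.64 with adjusted p from 2.98e-08 to 0.0451. Without the libraries that stand apart, where MI day 28 replicate 1 is the only MI library of that age, it was 3.52.

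On day 7 CXCL2 was at 6.36, 6.64 and 23.8 CPM in MI hearts and at 3.00, 2.82 and 3.23 CPM in naive hearts. The groups did not overlap, and replicate 3, a library that stands apart, was the highest of the MI libraries. The estimate on the log2 scale was 2.02 (SE 0.49), which did not pass in edgeR (adjusted p = 0.142). The adjusted p was 0.00924 in DESeq2 and 0.0233 in limma voom, which called 263 and 2040 of all genes on day 7. Without MI day 7 replicate 3 the estimate was 1.11 (edgeR adjusted p = 0.507), and without the libraries that stand apart 1.06 (adjusted p = 0.452). On day 14 the MI libraries held 3.61, 15.9 and 6.58 CPM and the naive libraries 5.09, 5.54 and 5.42. Here the groups overlapped, with the lowest and the highest value both in MI hearts, and the difference of 0.70 on the log2 scale (SE 0.47, edgeR adjusted p = 0.999) turned to -0.07 without MI day 14 replicate 2.

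Naive CXCL2 stayed in a narrow band across ages, from 2.82 to 6.33 CPM, with 6.33 and 4.14 on day 1 and 3.78 and 2.87 on day 3. Of the 8 MI libraries, 7 were above the highest naive library. The MI effect on CXCL2 on day 28 minus that on day 7 was 1.55 (SE 0.70, edgeR adjusted p = 0.244), and the effect on day 14 minus that on day 7 was -1.32 (SE 0.67, edgeR adjusted p = 0.735) on the log2 scale, so a difference between ages was not shown.

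CXCL8, the ligand also known as interleukin 8, rose on day 28. It was at 2.49 and 17.4 CPM in MI hearts against 0.177, 0.238 and 0.0677 CPM in naive hearts. The lower MI library was 10.4-fold above the highest naive library of that age. The log2 fold change was 5.95 (SE 1.65, edgeR adjusted p = 0.0425). It no longer passed in 9 of the 11 alternatives that gave an adjusted p. Without MI day 28 replicate 2 it was 3.98 (adjusted p = 0.175), and without the libraries that stand apart 4.32 (adjusted p = 0.202).

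At the other ages most libraries held little CXCL8. On day 14 it was at 0, 4.46 and 0.196 CPM in MI hearts and at 0.0184, 0.206 and 0.157 CPM in naive hearts, and on day 7 at 0.0498, 0.103 and 0.660 CPM against 0.216, 0.0247 and 0.235. Only MI day 14 replicate 2 and MI day 7 replicate 3 were above all naive libraries of their age. CXCL8 had the smallest p of the members on day 14 (log2 fold change 3.58, SE 1.48, edgeR adjusted p = 0.909), and it became -0.27 without MI day 14 replicate 2 and -0.75 in limma voom. On days 1 and 3 naive hearts held 0.136, 0.130, 0.112 and 0.0325 CPM.

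Ligands of the same locus that carry other names, AMCF-II and PPBP, were called higher on day 28 with all libraries. AMCF-II, a neutrophil-attracting ligand of the pig, was at 0.855 and 11 CPM in MI hearts on day 28 and at 0 counts in the 3 naive libraries, which makes the group at least 346-fold higher against a floor of 3 counts over the naive group. Replicate 1 alone was at least 51.4-fold higher and replicate 2 at least 667-fold. Its adjusted p in edgeR's quasi-likelihood test was 0.03, and 0.0883 without replicate 2. PPBP, a platelet chemokine, was at 0.155 and 6.82 CPM against 0, 0.0238 and 0.0169 (log2 fold change 8.0, SE 2.22, edgeR adjusted p = 0.043), and its log2 fold change was 3.55 (adjusted p = 0.371) without replicate 2. In MI day 14 replicate 2 AMCF-II reached 17.0 CPM and PPBP 4.12 CPM. These 2 were called of 6 tested family genes whose names fall outside the rule, where 4.47% of all genes were called higher. The median log2 fold change of the 6 was 1.53 with all libraries. It was 0.65 without replicate 2 and 0.53 without the libraries that stand apart.

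**Figure D3:**
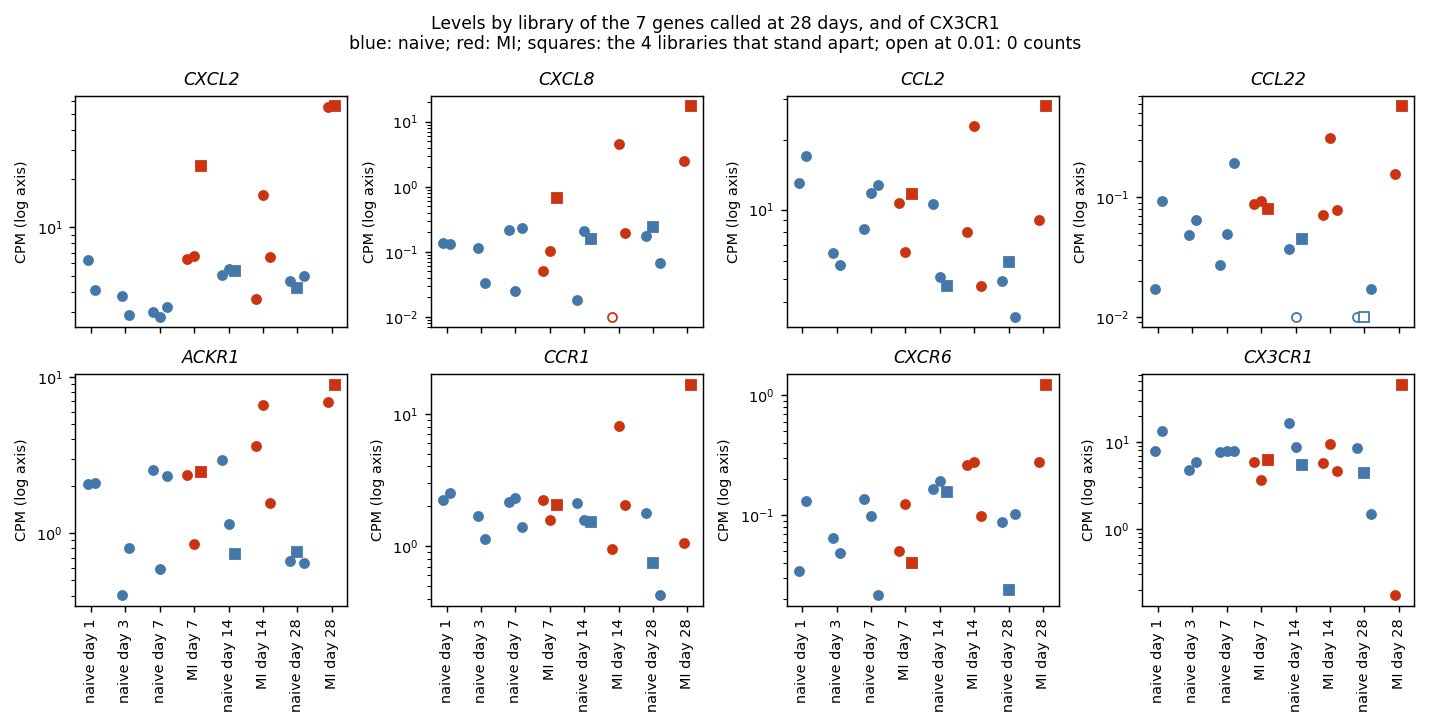
CPM (log axis) of the 7 members called on day 28 and of CX3CR1 in every library, by group (x axis), with naive libraries in blue, MI libraries in red, squares for the 4 libraries that stand apart and open symbols for 0 counts. The MI day 28 points of CXCL2 lie together at about 55 CPM, whereas those of CCR1 (1.06 and 16.5 CPM) and CX3CR1 (0.171 and 45.6 CPM) lie far apart.

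Neutrophil markers were high in some of the same libraries. The 11 marker genes, 9 of them tested, summed to 8.0 and 42.5 CPM in MI hearts on day 28 against 1.17 to 1.56 CPM in naive hearts, to 37.1 CPM in MI day 7 replicate 3 and to 25.7 CPM in MI day 14 replicate 2. CSF3R, the receptor for the granulocyte growth factor, and TREM1 were called on day 28, which makes 2 of 9 against 4.47% of all genes, and 0 of the 9 were called without MI day 28 replicate 2. The median log2 fold change of the 9 on day 28 was 3.83, and 2.96 without MI day 28 replicate 2. Not every one of the 11 listed genes was high. MPO was at most 0.132 CPM in the MI groups, and ELANE was at 0.124 to 0.135 CPM in MI hearts on day 28, against 0.0252 to 0.214 in naive hearts. The part of neutrophils in the CXCL2 and CXCL8 results was not tested.

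The interferon-induced ligands CXCL9, CXCL10 and CXCL11 were not called at any age. CXCL10 was at 5.30 and 9.26 CPM in MI hearts on day 28 against 6.38, 1.64 and 0.271 CPM in naive hearts, and the groups overlapped. Its highest level of all was 43.5 CPM in MI day 14 replicate 2, where CXCL9 also peaked at 15.8 CPM. CXCL11 did not exceed 0.579 CPM. The interferon response list had 0 of 11 tested genes called on day 28, with a median log2 fold change of 0.32.

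Among the other CXC ligands, CXCL12 was at 5.73 and 47.9 CPM in MI hearts on day 28 against 8.23, 7.91 and 7.65 in naive hearts, so the MI libraries lay on either side of a narrow naive range. Its log2 fold change there was 1.76 (SE 0.65, edgeR adjusted p = 0.0973) with all libraries, 2.62 (adjusted p = 0.0106) without MI day 28 replicate 1, -0.44 without replicate 2 and -0.46 without the libraries that stand apart, so no direction can be given. CXCL14, a ligand of epithelial and stromal tissue, was above naive in both MI day 28 libraries (1.97 and 2.37 CPM against 0.152 to 0.619) and had its highest level, 6.99 CPM, in MI day 14 replicate 2. It was not called (adjusted p = 0.139 in edgeR).

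CCL2 rose on day 28. It was at 8.98 and 28.0 CPM in MI hearts against 4.91, 5.93 and 3.44 CPM in naive hearts, and the groups did not overlap. On the log2 scale CCL2 rose by 1.96 (SE 0.56, edgeR adjusted p = 0.0467), close to the threshold, and in 9 of the 12 alternatives it no longer passed. Without MI day 28 replicate 2 it was 0.95, and without the libraries that stand apart 1.12 (adjusted p = 0.34). On day 7 CCL2 was at 10.7, 6.57 and 11.7 CPM in MI hearts and at 8.25, 11.8 and 12.8 in naive hearts, and on day 14 at 7.99, 23.1 and 4.68 against 10.6, 5.09 and 4.68, with overlap on both days. Naive levels were highest on day 1 (13.1 and 17.0 CPM) and were 6.48 and 5.75 CPM on day 3.

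The remaining ligands for monocytes were not called. CCL5, a T cell and macrophage product, was at 3.42 and 16.7 CPM in MI hearts on day 28 and between 0.152 and 3.61 in naive hearts. CCL3L1 was at 0.295 and 2.12 CPM against 0.169 to 0.286, without overlap. CCL14 was at 42.3 CPM in MI day 28 replicate 1 and 19.7 in replicate 2 against 7.92 to 29.6 CPM. CCL16 stayed at or below 0.214 CPM in all libraries.

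CCL22, a ligand of dendritic cells and macrophages that acts on CCR4, was called on day 28 on few counts. The MI libraries had 10 and 34 counts (0.155 and 0.576 CPM) and the naive libraries 0, 0 and 1. The ratio of the pooled counts per library size was 64.3 (95% exact interval 11 to 2600, counting error only), and the fitted log2 fold change was 5.59 (SE 1.31, edgeR adjusted p = 0.0266). CCL22 no longer passed in 7 of the 11 alternatives that gave an adjusted p. Its log2 fold change was 4.4 without MI day 28 replicate 2 and 4.07 without the libraries that stand apart. On day 7 the MI libraries held 0.0872, 0.0927 and 0.0792 CPM and the naive ones 0.0270, 0.0495 and 0.193, and on day 14 the MI libraries held 0.0704, 0.314 and 0.0785 CPM against 0.0367, 0 and 0.0450. CCL22 was at 0.0170 and 0.0932 CPM on day 1 and 0.0481 and 0.0649 CPM on day 3.

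CCL20, which draws CCR6-bearing lymphocytes and dendritic cells, had 0 counts in all 13 naive libraries and counts in 5 of 8 MI libraries. The counts were 7, 0 and 0 on day 7, 0, 7 and 8 on day 14, and 20 and 10 on day 28. Against a floor of 3 counts over the naive group, CCL20 was at least 14.6-fold higher on day 28 and at least 3.45-fold higher on day 14. It was not called (adjusted p = 0.093 on day 28 in edgeR), and its receptor CCR6 was too low to read.

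CCL19 and CCL21 were not called. CCL19 was above naive in both MI day 28 libraries, at 1.91 and 10.4 CPM against 0.406 to 1.41 (adjusted p = 0.0677 in edgeR). CCL21 varied 15.4-fold between naive libraries, from 4.08 to 62.8 CPM, and its highest level was 87.9 CPM in MI day 14 replicate 2.

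The ligands for eosinophils were split between the MI day 28 libraries. CCL26, also called eotaxin-3, was at 14.0 CPM in replicate 1 and 0.0169 CPM (1 count) in replicate 2, against 0.164, 0.214 and 0 CPM in naive hearts. The row named CCL11 was the other way round, at 0.0622 and 8.11 CPM against 0.271 to 0.881. This row's ID carries the symbol CCL8 in a newer name table, so which ligand it counts is uncertain. With all libraries CCL26 was not called by edgeR on day 28, while DESeq2 called it higher (log2 fold change 5.87, adjusted p = 0.028). Its edgeR log2 fold change was -2.7 without replicate 1 and 6.84 without replicate 2, so no direction can be given. In naive hearts CCL26 was at 0, 0.0247 and 0.0214 CPM on day 7 and at 0.110, 0.280 and 1.08 on day 14. It had the smallest p of the members for naive day 14 against day 7 (log2 fold change 4.76, SE 2.11, edgeR adjusted p = 0.542), on 48 counts at most. CCL26 was at 0 on day 1 and at 0.0641 and 0.114 CPM on day 3, and in MI hearts at 0, 0.0824 and 0.766 CPM on day 7 and 0.194, 0.265 and 0.510 CPM on day 14.

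CX3CL1, a membrane-bound ligand of vessel walls, did not separate MI from naive hearts. It was at 29.4, 33.3 and 12.1 CPM in MI hearts on day 7 against 23.7, 20.4 and 32.1, at 26.7, 30.2 and 28.6 on day 14 against 38.6, 25.3 and 33.5, and at 28.0 and 23.4 on day 28 against 28.7, 16 and 14.4. The log2 fold change on day 28 was 0.38 (95% interval -0.40 to 1.16). XCL1, a product of killer cells, stayed at or below 0.784 CPM and was not called.

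Among the receptors, CCR1 was called on day 28 although the groups overlapped. It was at 1.06 and 16.5 CPM in MI hearts against 1.77, 0.738 and 0.423 CPM in naive hearts. Replicate 1 lay inside the naive range and replicate 2 far above it. Its difference on the log2 scale was 3.16 (SE 0.88, edgeR adjusted p = 0.0426) with all libraries. The difference was 0.14 without MI day 28 replicate 2 and -0.04 without the libraries that stand apart. In 8 of the 12 alternatives it stayed positive but no longer passed, and in 1 it turned negative. On day 14 CCR1 was at 0.950, 8.02 and 2.05 CPM in MI hearts against 2.13, 1.56 and 1.53, and on day 7 at 2.23, 1.57 and 2.05 against 2.16, 2.30 and 1.39. Day 1 held 2.25 and 2.52 CPM and day 3 held 1.68 and 1.14. In RefSeq, CCR1 (chr13:29227218-29233862) lies almost wholly within the span of XCR1 (chr13:29150376-29233802) on the same strand, so reads of these genes may not be separable.

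CXCR6, the receptor for the membrane-bound ligand CXCL16, rose on day 28 at low levels. It was at 0.280 and 1.22 CPM (18 and 72 counts) in MI hearts against 0.0883, 0.0238 and 0.102 CPM in naive hearts. The groups did not overlap, and the log2 fold change was 3.31 (SE 0.85, edgeR adjusted p = 0.0341). It was 1.93 without MI day 28 replicate 2, and 1.56 without the libraries that stand apart. CXCR6 no longer passed in 8 of the 12 alternatives. On day 7 CXCR6 was at 0.0498, 0.124 and 0.0396 CPM in MI hearts against 0.135, 0.0989 and 0.0214, and on day 14 at 0.264, 0.277 and 0.0981 against 0.165, 0.192 and 0.157. Day 1 held 0.0340 and 0.130 CPM and day 3 held 0.0641 and 0.0487 CPM.

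The receptors of monocytes and macrophages differed widely between the MI day 28 libraries. CX3CR1, the receptor for CX3CL1, was at 0.171 CPM in replicate 1 and 45.6 CPM in replicate 2, a factor of 267, against 8.57, 4.41 and 1.47 CPM in naive hearts. CCR2 was at 0.404 and 30.9 CPM against 7.75, 6.41 and 0.559. CX3CR1 was called higher without replicate 1 (log2 fold change 3.28, edgeR adjusted p = 0.00545) and called lower without replicate 2 (-4.77, adjusted p = 0.0152), so with both libraries no direction can be given. The ID of the row named CCR2 carries the symbol CCR3 in a newer name table.

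The other receptors were low or not called. CXCR4 was at 3.09 and 14.8 CPM in MI hearts on day 28 against 2.49 to 4.67. CCR7 was above naive in both MI libraries, at 0.559 and 1.24 CPM against 0.167 to 0.278 (adjusted p = 0.13 in edgeR). CCR10, the receptor of skin-homing T cells, ranged from 0.643 to 1.74 CPM over all libraries. CXCR3 reached 0.592 CPM, CXCR5 0.237, CCR9 0.404 and XCR1, a dendritic cell receptor, 1.05 CPM. No row was named CXCR1 or CXCR2, so CXCR2, the receptor of CXCL2, could not be read.

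ACKR1, the Duffy antigen receptor, which carries chemokines across the walls of venules, rose 11.4-fold on day 28. It was at 6.95 and 8.89 CPM in MI hearts and at 0.669, 0.762 and 0.643 CPM in naive hearts. Like CXCL2, it was close between the MI libraries and far from the naive ones. On the log2 scale ACKR1 rose by 3.52 (SE 0.70, edgeR adjusted p = 0.0159). The rise was 3.41 without the libraries that stand apart, where MI day 28 replicate 1 is the only MI library of that age. ACKR1 fell just short of the threshold in 4 of the 12 alternatives, with adjusted p from 0.0509 to 0.0916.

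ACKR1 in naive hearts reached higher levels at younger ages than on day 28. It was at 2.06 and 2.09 CPM on day 1, 0.401 and 0.812 on day 3, 2.54, 0.594 and 2.31 on day 7, and 2.94, 1.15 and 0.742 on day 14. MI hearts held 2.37, 0.855 and 2.47 CPM on day 7 and 3.61, 6.62 and 1.56 on day 14, overlapping with naive hearts on both days. ACKR1 had the smallest p of the members for the MI effect on day 28 minus that on day 7 (3.45, SE 0.91, edgeR adjusted p = 0.105, DESeq2 adjusted p = 0.0082).

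The other atypical receptors were above every naive day 28 library in both MI libraries, but were not called by edgeR. ACKR2, a scavenger of inflammatory CC ligands, was at 77.3 and 46.6 CPM against 21 to 27.4 (adjusted p = 0.1). ACKR4, a scavenger of CCL19 and CCL21, was at 4.52 and 1.78 CPM against 0.322 to 1.21 (adjusted p = 0.0941). ACKR3 was at 32.0 and 49.1 CPM against 27.6, 17.8 and 27.0 (adjusted p = 0.266).

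ACKR3 had the smallest p for the MI effect on day 14 minus that on day 7 (1.67, SE 0.54, edgeR adjusted p = 0.588). It was at 21.9, 17.8 and 24.7 CPM in MI hearts on day 7 against 18.9, 43.0 and 47.1 in naive hearts, and at 19.7, 36 and 67.7 on day 14 against 17.8, 24.5 and 23.5. The groups overlapped at both ages, while limma voom called ACKR3 lower on day 7 (log2 fold change -1.07, adjusted p = 0.0211). Naive hearts held 28.5 and 27.6 CPM on day 1 and 11 and 18.9 on day 3. In both tests of a changed MI effect, 0 of 36 members were called, where 0.00651% (day 14 minus day 7) and 0.013% (day 28 minus day 7) of all genes were.

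**Figure D4:**
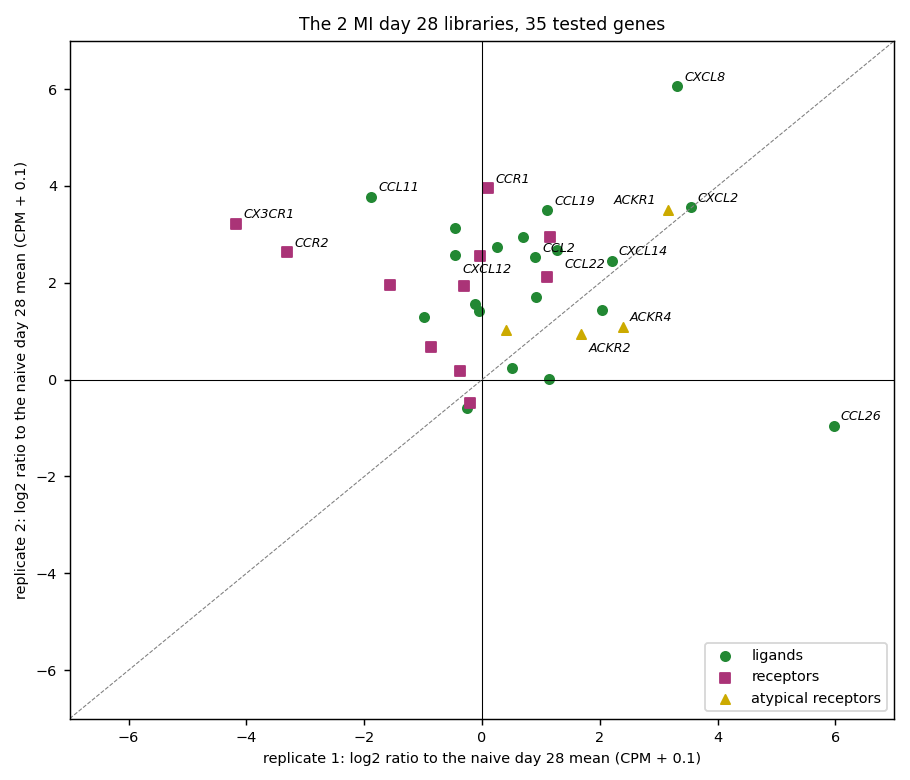
Log2 ratio of CPM + 0.1 to the naive day 28 mean for MI day 28 replicate 1 (x axis) and replicate 2 (y axis), 1 point for each of 35 tested members, with ligands, receptors and atypical receptors marked and the dashed line at equal ratios. CXCL2 and ACKR1 lie near the line above 3, CX3CR1 and CCR2 far to its left and CCL26 far to its right.

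Compared gene by gene on day 28, 14 of 36 members were above all naive libraries in both MI libraries, against 16.4% of all genes tested, and 0 were below in both, against 21.4%. The 14 were CXCL2, CXCL8, CXCL14, CCL2, CCL3L1, CCL19, CCL20, CCL22, CXCR6, CCR7 and the 4 atypical receptors. A further 7 were below the naive range in replicate 1 and above it in replicate 2: CXCL12, CCL11, XCL1, CCR2, CX3CR1, CXCR5 and XCR1. These are 19.4% of the members, and 6.39% of all genes tested lay so. Of the 12 conventional receptors, 2 were above the naive range in replicate 1 and 10 in replicate 2, where 33.6% and 32.9% of all genes were. Replicate 2 held the highest level of all 21 libraries for 20 of the 36 members (55.6%), and for 14.6% of all genes tested. The median log2 fold change of the members was 2.61 without replicate 1, with 3 of 36 negative, and 0.41 without replicate 2, with 16 of 36 negative.

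Markers of leukocytes differed between the MI day 28 libraries too. The 14 macrophage markers, all tested, summed to 394.3 CPM in replicate 1 and 3996 CPM in replicate 2, against 87.0 to 426.8 CPM in naive hearts, and 10 of the 14 were called higher, where 4.47% of all genes were. Without replicate 2, 1 of the 14 was called, against 3.65% of all genes called higher. The lymphocyte markers summed to 13.5 and 165.1 CPM against 5.79 to 18.3 (4 of 15 called), and the dendritic cell markers to 5.75 and 44.2 CPM against 2.66 to 8.93 (0 of 5 called), and 0 of either list were called without replicate 2. In replicate 1 CXCL2 was 11.8-fold and ACKR1 10-fold above the naive mean, the macrophage and lymphocyte sums were inside the naive range and the neutrophil sum of 8.0 CPM was above it. The part of these cells in the results was not tested.

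Tissue markers also differed on day 28, where 4.47% of all genes were called higher and 366 of 15359 lower. Endothelial markers summed to 1337 and 948.6 CPM against 735.3 to 1055, with 1 of 8 called, SELP, an adhesion molecule of activated vessels (log2 fold change 2.90, edgeR adjusted p = 0.0324), which was 1.71 (adjusted p = 0.216) without replicate 2. Fibroblast markers summed to 2080 and 20980 CPM against 3937 to 6746, with 1 of 10 called. Of smooth muscle markers 3 of 8 were called higher, and their sums were 1716 CPM in replicate 1 and 804.4 CPM in replicate 2, on either side of 1036 to 1087 CPM in naive hearts. Of adipocyte markers 3 of 5 were called higher, and their sums were 668.4 CPM in replicate 1, above the naive range of 132.8 to 244.3 CPM, and 142.6 CPM in replicate 2, inside it. Without replicate 1 the median log2 fold change was 0.1 for smooth muscle and -0.01 for adipocyte markers. It was 0.01 for endothelial and 1.91 for fibroblast markers. Of 9 cardiomyocyte markers 2 were called lower. Cardiomyocyte markers summed to 56590 and 42560 CPM in MI hearts against 83360 to 97210 CPM. Leaving out the libraries that stand apart keeps MI day 28 replicate 1 alone. The median log2 fold change was then 0.7 for macrophage, 0.42 for smooth muscle, 4.89 for adipocyte and -0.33 for cardiomyocyte markers. It was 2.97 for neutrophil, -0.04 for lymphocyte, -0.06 for dendritic cell, 0.7 for endothelial and -1.04 for fibroblast markers. On days 7 and 14, 0 genes of any marker list were called. Their part in the results was not tested.

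Some genes that act downstream of the receptors were called on day 28, mostly where MI day 28 replicate 2 was included. Of 27 tested genes of receptor signalling 10 rose and 0 fell, where 4.47% of all genes were called higher, and their median log2 fold change was 0.91. They summed to 1311 CPM in replicate 1 and 1755 CPM in replicate 2, against 959.5 to 1143 CPM in naive hearts. Without replicate 2, 1 of the 27 was called, and without the libraries that stand apart also 1. The 10 include RGS2, which shortens G protein signals (log2 fold change 2.87, SE 0.50, edgeR adjusted p = 0.012), NCF1, a subunit of the phagocyte oxidase (4.27, SE 0.91, adjusted p = 0.0204), and the myeloid kinase FGR (2.59, SE 0.59, adjusted p = 0.0255). Without replicate 2 the log2 fold changes of RGS2, NCF1 and FGR were 2.67, 0.52 and 1.01, and without the libraries that stand apart 3.04, 0.71 and 1.29. Of 19 tested inducers and NF-kB feedback genes 7 rose and 0 fell, with a median of 1.77, and 2 were called without replicate 2 and 3 without the libraries that stand apart. They summed to 390.5 and 515.9 CPM against 211.8 to 220.6 CPM. TNFAIP3, an inhibitor of NF-kB, changed by 1.77 on the log2 scale (SE 0.32, edgeR adjusted p = 0.012), the cytokine OSM 5.34 (SE 0.97, adjusted p = 0.0131) and NFKBIZ 3.02 (SE 0.68, adjusted p = 0.0247). Without replicate 2 these were 0.96, 4.98 and 2.70, and without the libraries that stand apart 0.86, 4.73 and 2.71. The macrophage markers were also highest in replicate 2, and their part in these calls was not tested. On days 7 and 14, 0 genes of these lists were called.

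On day 7, 2 members lay above all naive libraries, CXCL2 and CCR10, against 13.9% of all genes tested, and 4 lay below, CXCL12, CCL14, CX3CR1 and CCR2, against 10.4%. On day 14 the counts were 1 above (CCL22) and 1 below (CXCR4), against 3.73% and 4.49% of all genes. These shares of 36 members are below or near the background. MI day 14 replicate 2 held the highest level of all libraries for 6 members (16.7%), and for 3.72% of all genes tested.

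The last question was how the family changed with age in naive hearts. In the 4 comparisons of naive ages, 0 of 36 members were called, and 0% of all genes were. From day 1 to day 3, 17 of 36 members were lower without overlap, against 17.3% of all genes tested, with 2 libraries in each group. They include CX3CL1 (53.9 and 39.4 CPM on day 1, 17.6 and 24.7 on day 3), which had the smallest p of the members (log2 fold change -1.14, SE 0.40, edgeR adjusted p = 0.965). Macrophage markers summed to 448.2 and 615.5 CPM on day 1 and 294.4 and 393.4 on day 3, and their part in these lower levels was not tested.

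From day 1 to day 7, 8 members were lower without overlap, against 12.9% of all genes. CX3CL1 again had the smallest p (-0.88, SE 0.36, edgeR adjusted p = 0.883). From day 7 to day 28, 6 were lower without overlap, against 7.76%: CCL2, CCL5, CCL11, CCL22, CXCL9 and CXCL10. CCL22 had the smallest p of them (log2 fold change -3.63, SE 1.32, edgeR adjusted p = 0.544). At an unadjusted p under 0.05, there were 3, 1, 2 and 4 members in the comparisons of day 3 with day 1, day 7 with day 1, day 14 with day 7 and day 28 with day 7, and 543, 835, 1357 and 1103 of all 15359 genes. Naive day 28 replicate 3 was low in several of these, with CXCL10 at 0.271, CCL5 at 0.152 and CXCL9 at 0.0339 CPM.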

How the data were processed

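The authors deposited raw counts for 25880 Ensembl genes in 21 libraries, with no CPM or other normalized values. Per the submitters' processing notes, Trim Galore, STAR 2.5.2, HTSeq 0.6.1, DESeq2 and the Sscrofa11.1 build were used. Which annotation and strand setting were used, and how reads shared by gene copies or overlapping genes were handled, is not given here.

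Groups were taken from the labels. With edgeR 4.0.16, 15359 genes passed filterByExpr, libraries were scaled with TMM factors and 1 mean for each of 8 groups was fitted (glmQLFit, robust, 13 residual degrees of freedom, biological coefficient of variation 0.373). The 9 contrasts were tested two-sided with the quasi-likelihood F-test and Benjamini-Hochberg adjustment over all genes tested, and called under 0.05. SEs were derived from the F statistic. CPM used the scaled library sizes. Replicates are separate pigs, and no libraries of a group were duplicates in a chi-square check of their counts (chi-square per degree of freedom 43.8 to 779, where sampling noise alone gives about 1). Intervals on counts cover counting error only. The pipeline was tested on simulated counts.

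Alternatives were other size factors, no filter, DESeq2 1.42.0, limma 3.58.1 voom with quality weights, only the groups compared, a term for or removal of the 4 libraries that stand apart, and leaving out each library; list counts under these were added after the data were seen. All members but 1, which enters the counts but is not reported here, are named; values in every library are given for CXCL2, for called members and for the member with the smallest p in a comparison without calls, and up to 3 called genes per pathway list. The members, gene lists and tests were chosen with earlier results of these data known. Coordinates, exon lengths and promoters came from RefSeq on Sscrofa11.1, matched by symbol for 42 of 44 members. Of 44 IDs, 38 were in a newer name table, where 2 carried another symbol. R 4.3.3 and matplotlib were used.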

Additional observations from a re-analysis of the deposited data

How the results depend on the processing

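Of the 9 counts of called members, those of MI against naive on day 14, the MI effect on day 14 minus day 7, naive day 3 against day 1 and naive day 7 against day 1 stayed at 0 under every alternative. On day 28, where 7 members and 1053 of all genes were called, the count was 4 with no filter on low counts and 11 in DESeq2. It was 1 in limma voom, 1 with only the groups compared, 3 with a term for the 4 libraries that stand apart and 7 with other size factors. All genes called were then 721, 2205, 46, 2, 646 and 1120 in that order. The count was 1 or 2 when a naive day 28 library was left out, where 17 to 314 of all genes were called. Fits that keep 1 MI day 28 library are given below by the signs of the members. CCL22 and CXCL8 had no adjusted p in DESeq2 for MI against naive on day 28. On day 7 the count of 0 became 1 in DESeq2 and 3 in limma voom, where 263 and 2040 of all genes were called. The 3 in limma voom were CXCL2, CCR10 (log2 fold change 0.78, adjusted p = 0.046) and ACKR3 (-1.07, adjusted p = 0.0211). For the MI effect on day 28 minus day 7 the count became 4 in DESeq2, where 695 of all genes were called. It also moved without MI day 28 replicate 1, which keeps 1 MI library of that age. For naive day 14 against day 7 it became 2, and for naive day 28 against day 7 it became 1, both in limma voom. Of the called members, CXCL2 on each day and the smallest p of each comparison without calls, 3 results turned negative in log2 fold change: CXCL2 on day 14 to -0.07 without MI day 14 replicate 2 (up to 1.07 with another library left out), CXCL8 on day 14 to -0.75 in limma voom and -0.27 without MI day 14 replicate 2 (up to 4.17), and CCR1 on day 28 to -0.04 without the libraries that stand apart. Over all 36 members on day 28, 3 were negative without MI day 28 replicate 1, 16 without MI day 28 replicate 2 and 15 without the libraries that stand apart. The causes were not tested, beyond the fewer libraries these fits hold. Where a left-out library leaves 1 in a group, the remaining one is assumed to vary like the other groups. No paired analysis was possible because replicate numbers follow the order of the records and link no pigs across groups. Members with at most 36 counts in any library, CCL16, CCL20, CCL22, CCR9, CXCR3 and CXCR5 among the tested ones, are limited by depth.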
